A study of Mus musculus with 2 samples.

Results

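The genes described here encode the machinery that breaks down fatty acids in mitochondria and peroxisomes: 39 genes, of which 33 were measured in mouse skin among 10454 genes or transcripts measured in all. They comprise 16 genes of mitochondrial oxidation, 14 of peroxisomal oxidation and its transporters, 6 peroxins and 3 regulators, and were chosen by function with earlier results of these data known. The skin came from Pla2g2f-Tg/+ mice, which carry a transgene for the secreted phospholipase A2 Pla2g2f, and from littermate controls, all on a C57BL/6 background and 25 days old. Pools of total RNA from 4 mice per genotype were set against each other on 2 two-colour Agilent arrays, the transgenic pool carrying Cy5 on array 1 and, dyes exchanged, Cy3 on array 2. The sources used here do not name the promoter that drives the transgene.

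All values are log2 ratios of transgenic over control unless a processed signal is named, and a positive ratio means a higher signal in the transgenic pool. Since nothing in the labels gives each array pools of its own, the 2 arrays count as 1 replicate, their mean is the value reported, and there is no test across mice. The absolute difference between the arrays was treated as technical, and its median was 0.16 over the 33 members and 0.23 over all measured genes. A gene counted as measured if its brightest probe exceeded background clearly, by the scanner program's own criterion, in either channel of array 1. All 33 measured members were so in both channels. A gene was called higher or lower if both arrays put it 2-fold or more apart in the same direction. Pla2g2f itself had processed signals of 683 in the transgenic and 471 in the control channel of array 1 and ratios of 0.54 and 0.34, which did not meet that rule.

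Mitochondria take up long-chain fatty acids as carnitine esters and shorten them step by step, passing electrons to the respiratory chain. Peroxisomes shorten very long and branched chains, and their oxidases release hydrogen peroxide, which catalase breaks down. In liver, many of these genes are induced by PPARs, nuclear receptors that respond to fatty acids. In skin, fat cells, muscle fibres, sebaceous glands and the epidermis all carry parts of this machinery, so a pooled skin sample mixes them, and more cells of a type cannot be told apart from more RNA per cell.

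The members that met the 2-fold rule were the peroxisomal genes Acox3, Cat and Pex11a, each higher on both arrays, while Crot, an enzyme that hands shortened acyl groups to carnitine, had the lowest mean. The probes behind these 4 values identify what was measured, and the middle 30 bases (16 to 45 of 60) of each are given here in lower case. Positions are on mm8, as the array design gives them.

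Acox3 probe, chr5:35930427-35930486: ggtgatatcacatgacttctagaaatgaat

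Cat probe, chr2:103255342-103255401: tttaacagaaacatggatctaataggactt

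Pex11a probe, chr7:79610850-79610909: cacggtagtgtatcctcagctgaaactgaa

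Crot probe, chr5:8972436-8972495: gagggataaagcacacggttagaagctaat

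Among the 33 measured members, 3 were higher by the 2-fold rule (9.09%) and none (0) lower, beside 3.72% and 1.68% of all measured genes. Most members lay between these extremes: 28 were above 0 on both arrays, 2 were below 0 on both and 3 changed sign. Over all measured genes, 35.3% were above 0 and 35.7% below 0 on both arrays. At a looser threshold of 1.5-fold on each array, chosen after seeing the data, 13 members were higher and 0 lower, beside 8.26% and 3.8% of all genes. The median of the members was 0.61, against -0.0079 for all measured genes.

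These values follow the arrays' own scaling. The probes of the spike-in control RNAs had a mean ratio of 0.47, and using them as the zero shifts each gene down by that amount. The members' median was then 0.14, with 22 of 33 means above 0 (66.7%), beside 14.0% of all measured genes. No member (0) was then higher by the rule and 1, Crot, was lower, beside 173 higher and 473 lower of all 10454 measured genes. Over all genes the share of higher genes among the calls became 26.8%, against 68.8% in the arrays' own scaling. Pla2g2f, with a mean of 0.44 before the shift of 0.47, came to lie just below 0.

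**Figure D1:**
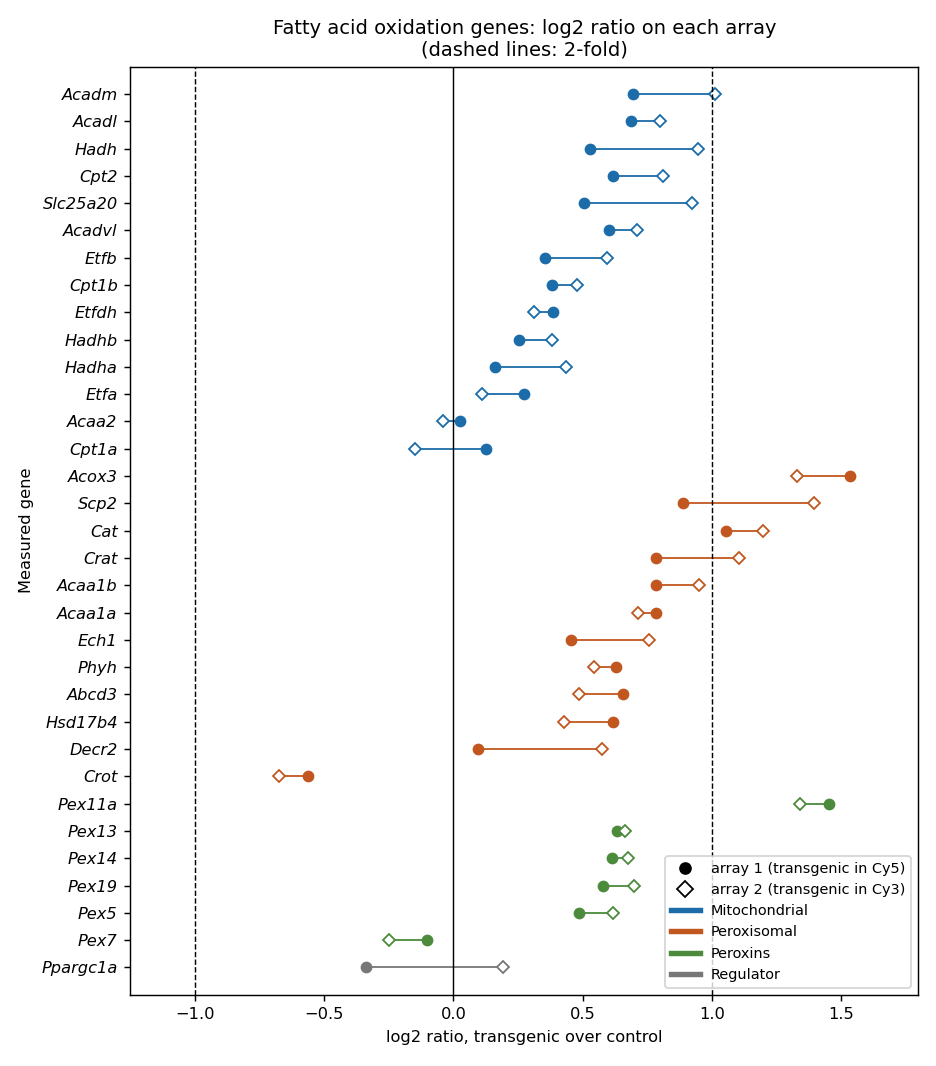
Log2 ratio of transgenic over control (horizontal axis) of the 33 measured members, with array 1 as filled circles and array 2 as open diamonds, grouped by role. Acox3, Cat and Pex11a lie right of the 2-fold line on both arrays, and Crot and Pex7 lie left of 0 on both.

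The peroxisomal members had a median of 0.68 over 12 measured genes, with 2 higher, 0 lower and 10 that did not pass. Of all measured genes 3.72% were higher and 1.68% lower. Acox3, an acyl-CoA oxidase of branched-chain substrates and the entry point of the peroxisomal spiral, had processed signals of 1807 in the transgenic and 624 in the control channel of array 1. Its ratios were 1.53 and 1.33, a mean 2.70-fold ratio, and it ranked 224 from the highest of the 10454 measured genes. Both arrays placed it past 2-fold, and centred on the spike-ins its mean was 0.96.

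Cat, the catalase that breaks down the hydrogen peroxide of peroxisomal oxidases, had signals of 2169 in the transgenic and 1042 in the control channel. Its ratios were 1.06 and 1.20, a mean 2.19-fold ratio that became 0.66 on the log2 scale when centred on the spike-ins. Scp2, whose products include a thiolase for branched chains, had signals of 3542 and 1914 in the transgenic and control channels, with ratios of 0.89 and 1.39. Its mean of 1.14 was close to the 1.13 of Cat, but array 1 lay under 2-fold, so Cat is just inside the rule and Scp2 just outside it.

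The later enzymes of the peroxisomal spiral were represented by the thiolases Acaa1a and Acaa1b and by the bifunctional enzyme Hsd17b4. Acaa1a had signals of 11519 in the transgenic and 6687 in the control channel and ratios of 0.78 and 0.72, and its 2 dimmer measured probes gave 0.67 and 1.05, and 0.41 and 1.1, each past 2-fold on array 2 alone. Acaa1b had signals of 2135 and 1239 in the transgenic and control channels, with ratios of 0.78 and 0.95. Hsd17b4 had ratios of 0.62 and 0.43. By their brightest probes these 3 genes were above 0 on both arrays and under 2-fold on both, and their means centred on the spike-ins were 0.28, 0.40 and 0.055.

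Acaa1a and Acaa1b are neighbouring paralogs, with probes 202 kb apart on chromosome 9 of mm8. The middle bases (16 to 45) of their brightest probes are shown because a probe shared by both transcripts would give 1 value for 2 genes.

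Acaa1a probe, chr9:119198937-119198993: tgtacctttgagggagggatgcagtaaatg

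Acaa1b probe, chr9:118996906-118996965: cagcagtggaggagtgtgtcacagcacttt

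Laid over each other without gaps on either strand, the Acaa1b probe matched each of the 3 Acaa1a probes at no more than 23 of 55 bases, so they do not target the same stretch. Whether a probe also binds the other gene's transcript elsewhere was not tested, and single values of this pair are uncertain to that extent.

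Enzymes for unusual chains and a transporter were all above 0 on both arrays and under 2-fold on both. Phyh, which starts the alpha-oxidation of phytanic acid, had signals of 2618 in the transgenic and 1691 in the control channel and ratios of 0.63 and 0.55. Ech1, an isomerase of unsaturated intermediates, had ratios of 0.46 and 0.76. Decr2, the peroxisomal dienoyl-CoA reductase, had ratios of 0.10 and 0.57, which disagree on its size. Abcd3, a transporter that brings acyl-CoAs into the peroxisome, had signals of 9887 and 6269 in the transgenic and control channels, with ratios of 0.66 and 0.49.

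The 2 carnitine acyltransferases of this group stood on opposite sides of 0. Crat, which acts on acetyl groups in mitochondria and peroxisomes, had signals of 3607 in the transgenic and 2096 in the control channel and ratios of 0.78 and 1.1. Crot, which acts on medium-length chains in peroxisomes, had signals of 935 in the transgenic and 1381 in the control channel and ratios of -0.56 and -0.68. Crot was thus below 0 on both arrays in a group whose other 11 measured members were above 0 on both, and centred on the spike-ins its mean was -1.09 and met the 2-fold rule.

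**Figure D2:**
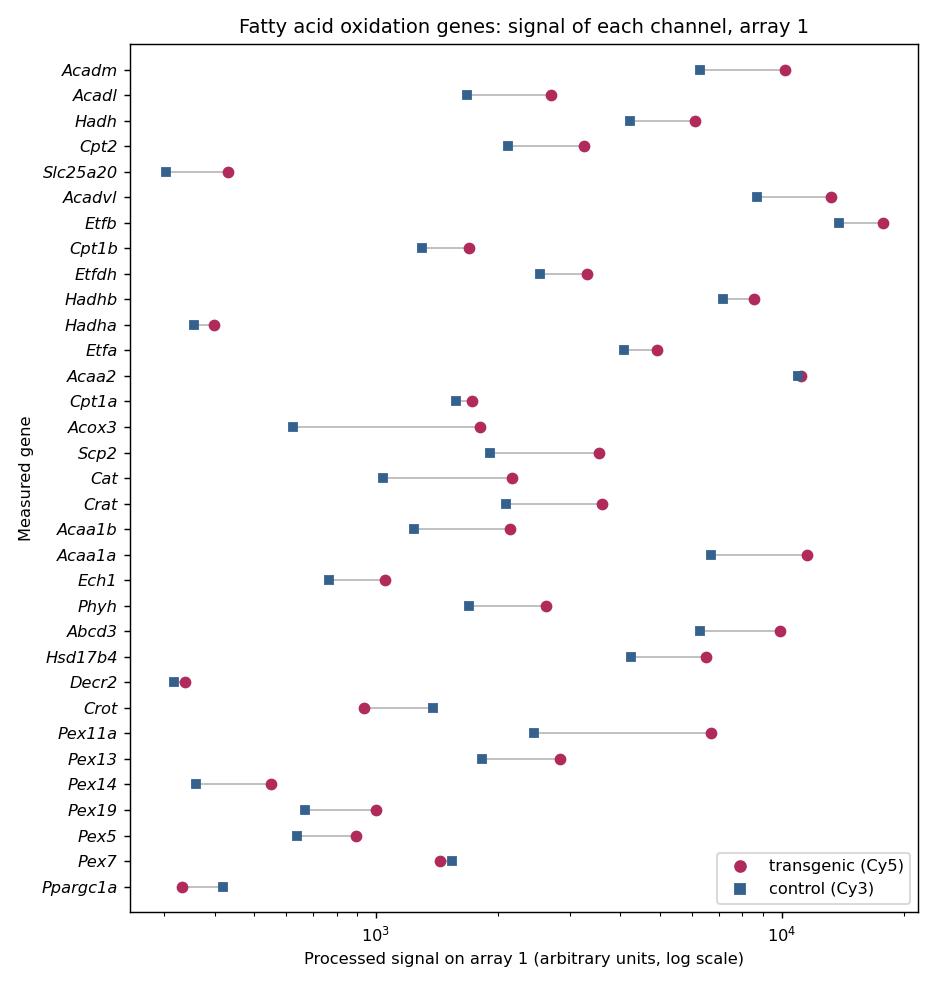
Processed signal on array 1 in arbitrary units (horizontal log axis) of the 33 measured members, with the transgenic channel as red circles and the control channel as blue squares. The widest gaps belong to Acox3 (1807 in transgenic, 624 in control) and Pex11a (6706 in transgenic, 2452 in control), while the 2 channels of Acaa2 nearly coincide.

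Peroxins build and divide the organelle and import its enzymes. All 6 were measured, with a median of 0.64, and 5 did not pass. By the rule 1 was higher and 0 lower, beside 3.72% and 1.68% of all measured genes. Pex11a, which promotes the elongation and division of peroxisomes, was printed in 10 spots. On array 1 its transgenic signals ran from 5484 through a median of 6798 to 7561, against control signals from 1907 through 2533 to 2813, so the channels did not overlap. The ratios of its spots ran from 1.35 to 1.64 on array 1 and from 1.24 to 1.48 on array 2. Their means were 1.45 ± 0.084 and 1.34 ± 0.093 (SD over 10 spots, which measures the arrays and not the mice), a 2.64-fold ratio in the mean of both arrays. Centred on the spike-ins the mean was 0.93.

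Of the other peroxins, 4 lay close together and Pex7 apart from them. Pex5, the receptor that brings most enzymes to the peroxisome, had signals of 893 in the transgenic and 638 in the control channel and ratios of 0.49 and 0.62. Pex13 and Pex14 form the dock for this receptor. The ratios of Pex13 were 0.63 and 0.67, those of Pex14 0.62 and 0.68. Pex19, a chaperone for peroxisomal membrane proteins, had ratios of 0.58 and 0.70. The means of these 4 genes ran from 0.55 to 0.65, within the median difference between the arrays. Pex7, the import receptor that Phyh and the thiolases need, had signals of 1438 in the transgenic and 1542 in the control channel and ratios of -0.10 and -0.25.

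**Figure D3:**
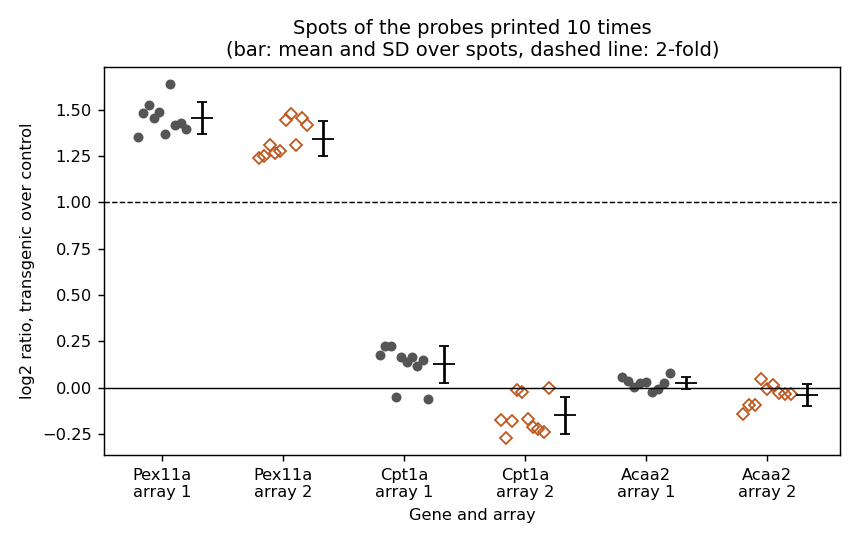
Log2 ratio of transgenic over control (vertical axis) of each spot of the members printed 10 times, by gene and array, with the mean and SD over spots beside them. All spots of Pex11a lie above the 2-fold line, while the spots of Cpt1a and Acaa2 lie around 0.

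The mitochondrial members had a median of 0.45 over 14 measured genes. None (0) passed the 2-fold rule in either direction, where 3.72% of all measured genes were higher and 1.68% lower. Of the 14, 12 were above 0 on both arrays and 2 changed sign, but with the spike-ins as zero the median became -0.017. The carnitine shuttle, which moves fatty acids across the mitochondrial membranes, was not uniform. Cpt1a, the liver-type enzyme at its entry, was printed in 10 spots, and its means were 0.12 ± 0.10 on array 1 and -0.15 ± 0.10 on array 2 (SD over 10 spots). Its sign differed between the dye orientations, and its mean of -0.013 was at the level of the median gene.

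Cpt1b, the muscle-type form of that enzyme, had signals of 1696 in the transgenic and 1301 in the control channel and ratios of 0.38 and 0.48. Slc25a20, the carrier of the inner membrane, had ratios of 0.50 and 0.92, from signals of 431 and 304 in the transgenic and control channels. Cpt2, which releases the acyl group inside, had signals of 3255 and 2119 in the transgenic and control channels and ratios of 0.62 and 0.81. The inner steps of the shuttle thus lay above its entry enzyme in value, but no test sets them apart.

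The acyl-CoA dehydrogenases open each round of oxidation inside the mitochondrion, each for its own chain length. Acadm, for medium chains, had signals of 10199 in the transgenic and 6299 in the control channel and ratios of 0.70 and 1.01. Acadl, for long chains, had ratios of 0.69 and 0.80. Acadvl, for very long chains, had signals of 13233 and 8711 in the transgenic and control channels and ratios of 0.60 and 0.71. All 3 measured dehydrogenases passed the looser 1.5-fold threshold on each array. Acadm passed 2-fold on array 2 alone, as did Scp2 and Crat.

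The enzymes that follow differed among themselves. Hadh, a hydroxyacyl-CoA dehydrogenase of shorter chains, had signals of 6109 in the transgenic and 4231 in the control channel and ratios of 0.53 and 0.95. Hadha and Hadhb encode the subunits of the trifunctional protein, which runs the remaining steps for long chains. The ratios of Hadha were 0.16 and 0.44, those of Hadhb 0.25 and 0.38. Hadha was much dimmer, with signals of 398 in the transgenic and 357 in the control channel, against 8537 and 7166 for Hadhb. The other probes of Hadha were not well above background. Acaa2, the thiolase of the matrix, had signals of 11153 in the transgenic and 10972 in the control channel as means over 9 spots, with ratios of 0.025 ± 0.032 and -0.041 ± 0.059 (SD over 9 spots). Its spots lay on both sides of 0 on each array.

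The electron transfer flavoprotein takes up the electrons of the dehydrogenases. Its subunits Etfa and Etfb had ratios of 0.28 and 0.11, and of 0.35 and 0.59. Etfdh, which passes these electrons to ubiquinone, had signals of 3317 in the transgenic and 2537 in the control channel and ratios of 0.39 and 0.31. All 3 were above 0 on both arrays and under 1.5-fold on at least 1 of them. With the spike-ins as zero, their median of 0.35 became -0.12.

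Of the 3 regulators only Ppargc1a, a coactivator of mitochondrial genes, was measured. It had signals of 333 in the transgenic and 420 in the control channel, and its ratios of -0.34 and 0.19 disagreed in sign. Ppara had signals of 279 and 226 in the transgenic and control channels of array 1, not well above background in either, and ratios of 0.30 and 0.64. Ppard, also not well above background, had signals of 112 and 105 and ratios of 0.10 and -0.15. By the scanner program's criterion on array 1, Ppara and Ppard were therefore not counted as measured, and their ratios are not read further.

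The same holds for 4 enzymes and transporters. Acads, the short-chain dehydrogenase, gave ratios of -0.53 and 1.64, a gap of 2.17 that shows how little a dim probe says. Ehhadh, the other peroxisomal bifunctional enzyme, gave 0.26 and 1.11. The brighter of 2 probes gave -0.071 and 0.088 for Decr1, the mitochondrial dienoyl-CoA reductase, and 0.086 and 0.79 for Abcd2, a transporter of very long chains. None of these probes was well above background in either channel of array 1.

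Other genes of the pathway were taken from lists that were also drawn up with earlier results of these data known. Counts in these and the cell type lists stand beside 3.72% higher and 1.68% lower over all measured genes. Acyl-CoA synthetases and fatty acid transport proteins activate fatty acids before oxidation or storage, and 5 of 7 measured genes were higher and 0 lower, with a median of 1.27 that became 0.80 with the spike-ins as zero. Acsl1 had ratios of 1.72 and 1.43, Acsl5 1.16 and 1.62, and Acsbg1 1.26 and 1.29. Of the 7 measured genes, 6 were above 0 on both arrays and 1, Acsl3, was below 0 on both, with ratios of -0.66 and -0.68. Slc27a4 had measured ratios of 2.74 and 2.21 with a control signal on array 1 too dim to be measured. With that signal replaced by the lowest one that the channel did measure, Slc27a4 was at least 3.0-fold higher there, a figure from a single array that dye bias can affect.

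Among other acyl-CoA enzymes, listed as mitochondrial, 0 of 11 measured genes passed, with a median of 0.42 that became -0.044 with the spike-ins as zero. The hydratase Echs1 had a mean of 0.52, Eci2, an isomerase, 0.53, and Acad9 0.66. That Eci2 acts in mitochondria was not tested. Acadsb had a measured mean of 0.87 but a control signal that was dim. General mitochondrial genes, such as those of the respiratory chain and the citrate cycle, had a median of 0.16 over 12 measured genes, or -0.31 on the spike-in scale, with 0 passing. In that list Cox4i1 lay at 0.46, Sdha at 0.30, Uqcrc1 at 0.28 and Cs at 0.28. The mitochondrial oxidation members, with their median of 0.45, are given beside these values without a test of the difference.

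Other peroxisomal enzymes and membrane proteins had a median of 0.33 over 10 measured genes, or -0.14 on the spike-in scale, and 1 was higher. This was Pxmp4, a peroxisomal membrane protein, with signals of 2051 in the transgenic and 572 in the control channel and ratios of 1.84 and 1.43. Amacr lay at a mean of 0.62, Lonp2 at 0.49 and Pxmp2 at 0.36. Other peroxins had a median of 0.40 over 7 measured genes, or -0.066 on the spike-in scale, and 1 was higher. This was Pex11g, a relative of Pex11a, at ratios of 1.36 and 1.46, although its second probe had a mean of 0.14. Pex16 and Pex3, which act in the assembly of the peroxisomal membrane, had means of 1.04 each and passed 2-fold on 1 array only. Pex6, an ATPase of receptor recycling, lay at 0.40.

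Of 8 measured PPAR targets outside oxidation 2 were higher and 0 lower, with a median of 0.44, or -0.031 on the spike-in scale. Plin2, a coat protein of lipid droplets, had ratios of 1.71 and 1.68, and Cd36, a fatty acid uptake protein, 1.11 and 1.23. Pdk4, a kinase that spares glucose, had a mean of 0.67 and Fabp3 0.49. Genes of the opposite pathway, fatty acid synthesis, had a median of 1.02 over 8 measured genes, or 0.55 on the spike-in scale, with 4 higher and 0 lower. Elovl6 had ratios of 2.01 and 2.12, Acacb, whose product makes the malonyl-CoA that inhibits the carnitine shuttle, 1.96 and 2.01, Thrsp 1.21 and 1.40, and Fasn 1.17 and 1.22. Genes of fatty acid synthesis and of the activating step therefore had larger medians than the oxidation members, a description of these pools with no test.

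**Figure D4:**
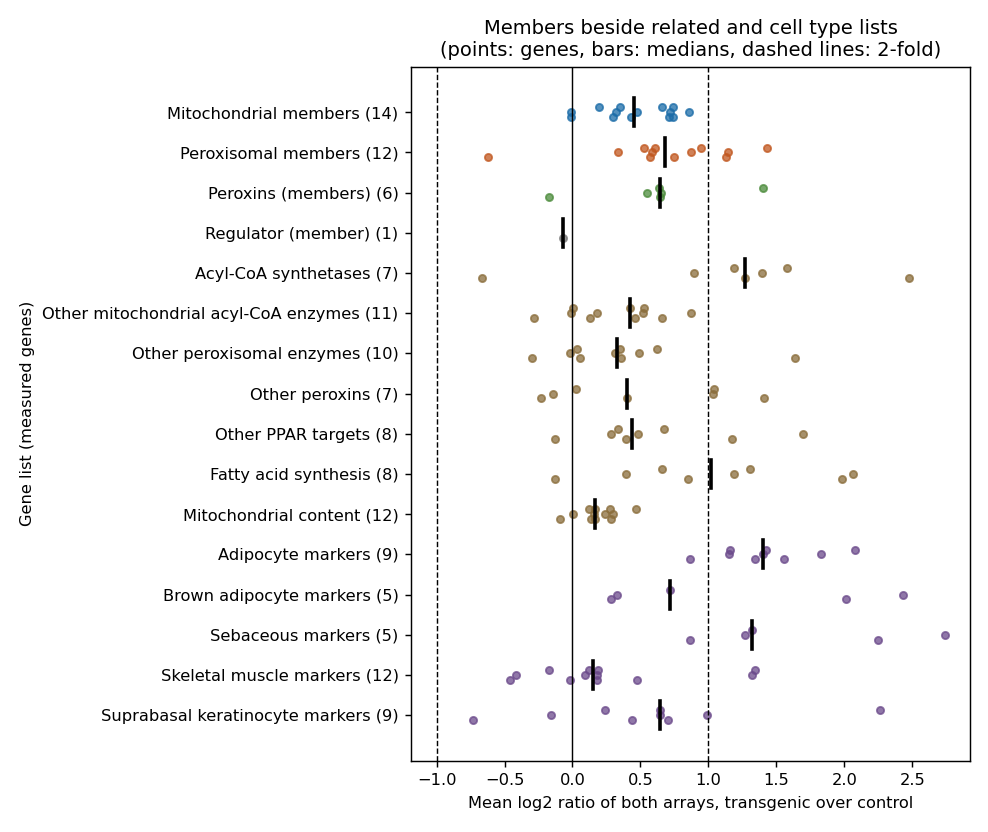
Mean log2 ratio of both arrays, transgenic over control (horizontal axis), of each measured gene by list, with a bar at each median. Drawn are the member groups, the related lists and the cell type lists other than the hair shaft and inner sheath markers. That list, with a median of -2.79, is left out. Adipocyte markers lie around 1.40 and acyl-CoA synthetases around 1.27, the peroxisomal members around 0.68 and general mitochondrial genes around 0.16, which becomes -0.31 with the spike-ins as zero.

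Markers of several cell types in skin are given beside the members' values. Adipocyte markers were higher in 8 of 9 measured genes, with a median of 1.40, or 0.93 on the spike-in scale, and summed signals on array 1 of 371454 in the transgenic and 119902 in the control channel. Cfd had a mean of 2.08, Cidec 1.83, Fabp4 1.55 and Adipoq 1.43, while Lep was not well above background. Sebaceous markers were higher in 4 of 5 measured genes, with summed signals of 38340 in the transgenic and 12921 in the control channel. Fa2h had a mean of 2.74, Soat1 2.25, Mgst1 1.32 and Acsbg1 1.27. Acsbg1 is also counted among the acyl-CoA synthetases above, so the 2 lists share a gene. The more specific Awat2, Mc5r and Scd3 were not well above background. The part of these cells in the members' values was not tested.

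Of the genes listed as brown fat markers, 2 of 5 measured were higher, Cidea with a mean of 2.43 and Elovl3 with 2.01. Cox8b, also bright in both channels, lay at 0.28. The median of this list was 0.71, or 0.24 on the spike-in scale. Ucp1, the defining gene of brown fat, was not well above background. Whether Cidea and Elovl3 mark brown fat in skin was not tested. Prdm16 at 0.71 and Dio2 at 0.33 were dim in the control channel. Muscle markers were higher in 2 of 12 measured genes, with a median of 0.15, or -0.32 on the spike-in scale, and summed signals of 871104 in the transgenic and 753095 in the control channel. Myh2 had a mean of 1.34, Myh1 1.32 and Ckmt2 0.48, while Myh4 lay at -0.46. Of the 3 measured probes of Myh1, the lowest had a mean of 0.69. Suprabasal keratinocyte markers were higher in 1 of 9, Krt1 at 2.26, with Krt10 at 0.99, Krtdap at 0.70 and Dsg1a at -0.73. Their median was 0.64, or 0.17 on the spike-in scale, and 7 of 9 were above 0 on both arrays. Their summed signals were 340289 in the transgenic and 213993 in the control channel. Hair shaft and inner sheath markers were lower in 11 of 11, with summed signals of 55456 in the transgenic and 323685 in the control channel. Krt33b had a mean of -4.87, with a dimmer probe at -1.68, and Krt33a -4.87, and Krt34 and Krt31, dim in the transgenic channel, had measured means of -4.53 and -3.64. As on the adipocyte and sebaceous lists, the part of these cells in the members' values was not tested.

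The 250 bases before the annotated start of the 3 called members are shown because PPARs bind direct repeats of the half-site AGGTCA. Binding of PPARs was not tested. Sequences are from RefSeq, build GRCm38.p6, 5′ to 3′ on the gene's strand, with AGGTCA and the GC box GGGCGG in capitals on either strand.

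Acox3 promoter, chr5:35582784-35583033, plus strand: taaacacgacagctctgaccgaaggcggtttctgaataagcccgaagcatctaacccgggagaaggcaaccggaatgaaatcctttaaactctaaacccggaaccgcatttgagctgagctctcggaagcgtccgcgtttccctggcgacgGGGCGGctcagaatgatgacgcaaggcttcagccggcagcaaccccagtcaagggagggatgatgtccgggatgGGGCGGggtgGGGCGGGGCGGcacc

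Cat promoter, chr2:103485154-103485403, minus strand: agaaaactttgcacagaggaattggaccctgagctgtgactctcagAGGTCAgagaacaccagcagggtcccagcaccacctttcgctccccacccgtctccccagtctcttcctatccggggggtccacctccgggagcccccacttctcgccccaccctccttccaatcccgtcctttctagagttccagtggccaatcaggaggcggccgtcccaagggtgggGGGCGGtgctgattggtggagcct

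Pex11a promoter, chr7:79743132-79743381, minus strand: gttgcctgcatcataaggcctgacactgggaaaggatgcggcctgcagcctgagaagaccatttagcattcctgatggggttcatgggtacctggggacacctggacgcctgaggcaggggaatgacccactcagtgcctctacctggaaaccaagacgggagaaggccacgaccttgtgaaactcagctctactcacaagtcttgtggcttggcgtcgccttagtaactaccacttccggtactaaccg

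The window of Cat held 1 half-site, starting 204 bases before the gene start, and 1 GC box, that of Acox3 held 4 GC boxes of which the last 2 overlap, and that of Pex11a held neither motif. Promoter windows were found for 32 of the 39 members. The full direct repeat, 2 half-sites with 1 base between them, was in 0 of them and in 0.0407% of 27025 genes with a window, a set that includes genes without a protein product. A repeat this rare says little by its absence from 32 windows. The half-site alone was in 5 of 32 (15.6%), against 15.8% of all those genes, and these were Cpt1a, Acadvl, Acadm, Scp2 and Cat. The GC box was in 21 of 32 members (65.6%), against 35.4% of all genes, the CCAAT box in 13 (40.6%), against 37.5%, and TATAAA in 1, Pex14, against 14.3% of all genes. A match describes letters in this window only.

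**Figure D5:**
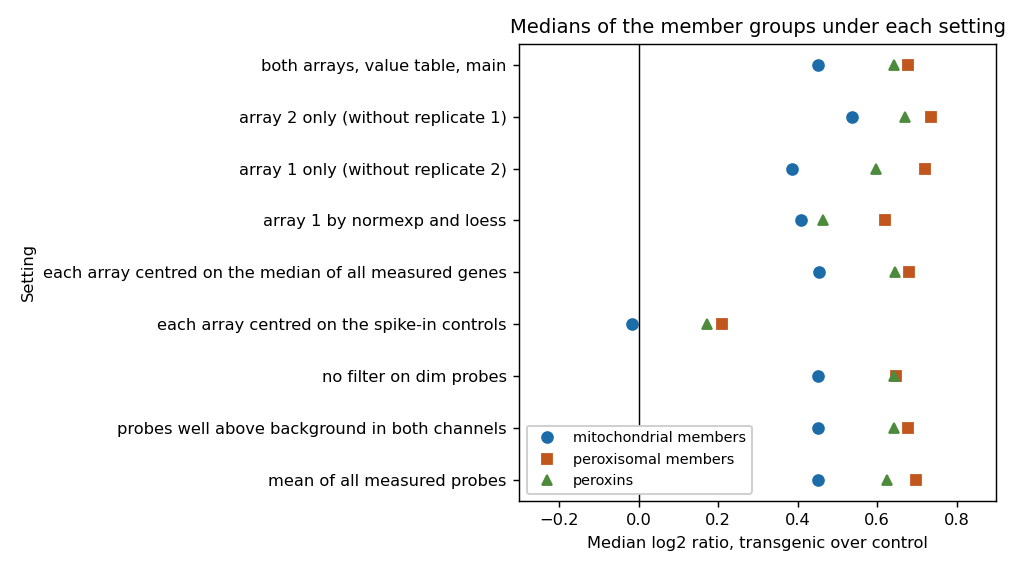
Median log2 ratio of transgenic over control (horizontal axis) of the mitochondrial members (circles), peroxisomal members (squares) and peroxins (triangles) under each processing setting (vertical axis). Centring on the spike-ins moved the 3 medians to -0.017, 0.21 and 0.17. The peroxisomal median was the highest of the 3 in each of the 9 settings, but all settings reuse the same 2 arrays. Centring moves the 3 medians alike and cannot change their order. Without the filter on dim probes the peroxisomal median was 0.65 and that of the peroxins 0.64, and no test sets them apart.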

How the data were processed

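Skin RNA was amplified and labelled with Cy3 or Cy5, per the labels' protocols. The scanner file of array 1, deposited by the authors, gives spot intensity in 2 channels, which Agilent Feature Extraction 9.5.1.1 had background-subtracted, detrended and dye-normalised, per the file headers. The deposited value table holds 1 log10 ratio per array. For array 1 it is the log10 quotient of the red and green processed signals, equal within 1e-08 at each of 43790 features. For array 2, scale and direction were read from the data: the 10 spike-in probes follow the dye in both columns (r = 1.00, slope 1.00), while all other features correlated at -0.579, as labels with exchanged dyes imply. The columns' medians were 0.0141 and -0.0234, so they were not centred. The sources used here give no later steps, and no signals of array 2 were used.

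Columns were converted to log2 and turned to transgenic over control. Control spots and 29 flagged spots were left out, spots of a probe averaged, and the brightest probe well above background in at least 1 channel stood for a gene. Symbols came from RefSeq (GRCm38.p6) by accession (24370 of 41167 probes), symbol (6300) or synonym (2425). The array's own name was used for 8072. Processed signals have arbitrary units. The number of arrays limits the precision. Members and lists were chosen with earlier results of these data known. Named genes are all members and, from each other list, up to 4 with the largest absolute means, with some dim genes, Acsl3 and Cox8b beside them. Alternatives were either array alone, normexp (offset 50) with loess on array 1 (limma 3.58.1, R 4.3.3), other centrings, other filters on dim probes, and the mean of a gene's probes. Figures and counts were made with Python 3.11.15.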

Additional observations from a re-analysis of the deposited data

How the results depend on the processing

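Centred on the spike-ins, the medians were 0.14 for all members, -0.017 for mitochondrial members (a turn of sign), 0.21 for peroxisomal members, 0.17 for peroxins and -0.54 for the PPAR regulators (Ppargc1a alone), and 1 member, Crot, was called, on the low side. With normexp on array 1, averaged with array 2 as deposited, these were 0.49, 0.41, 0.62, 0.46 and 0.068, Ppargc1a turning sign, and 1 member was called, Pex11a. Acox3 and Cat then had array 1 ratios of 0.81 and 0.63. Over all genes 107 were then higher and 56 lower, against 389 and 176, and the cause was not tested. Either array alone gave peroxisomal medians from 0.72 to 0.74, Ppargc1a values from -0.34 to 0.19 and 3 to 6 called members, Acadm, Scp2 and Crat being added without array 1. The share of all genes called higher rose as well, from 3.72% to 5.43% on array 1 alone and 4.97% on array 2 alone. Without the filter on dim probes the peroxisomal median was 0.65, and with the mean of a gene's probes it was 0.70. At 1.5-fold on each array, chosen after seeing the data, 13 members were called, beside 8.26% of all genes higher and 3.8% lower. No paired analysis was possible because there is 1 group of arrays, each holding both genotypes. Signals of array 2 were not used, so background and saturation there were not checked, and slide and scan cannot be told apart from the dye orientation. With 1 pool per genotype, the spread between mice is unknown.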
